A study of Homo sapiens with 16 samples.

Results

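The genes described here are 40 transcripts of glycolysis and of the response to hypoxia-inducible factor (HIF), taken by symbol from a table of 58243 gene IDs. All 40 were found in the table, and all 40 passed the filter on low counts that left 16647 genes for testing. They comprised 16 glycolytic enzymes, 6 genes for transport and flux control, 15 other HIF targets and the 3 HIF subunits HIF1A, EPAS1 and ARNT. The poly(A)-selected RNA was from a human glioblastoma line in wide use, U-251 MG, grown in high-glucose medium with fetal bovine serum. Cells were treated for 48 h, starting 24 h after seeding, with both drugs together (the combination, simvastatin at 0.06 µM and irinotecan at 0.6 µM), with simvastatin at 0.06 µM, with irinotecan at 0.6 µM, or with the vehicle DMSO. Each group held 4 libraries, and the library without a number in its title was called replicate 4. Simvastatin inhibits HMG-CoA reductase and so cholesterol synthesis, and irinotecan is converted in cells to a poison of topoisomerase I. The labels name no low-oxygen arm, and whether the libraries of 1 group were separate cultures is not stated, so the p-values measure the spread between these libraries, which may be technical.

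Glycolysis splits glucose into pyruvate, which lactate dehydrogenase can turn into lactate for export from the cell. HIF is a pair of an alpha subunit, HIF-1α (HIF1A) or HIF-2α (EPAS1), and the beta subunit ARNT. In oxygenated cells prolyl hydroxylases mark the alpha subunits for destruction, so HIF activity is set mostly at the protein level. When the alpha subunits persist, HIF binds short hypoxia response elements and raises the transcripts of glucose transporters, most glycolytic enzymes, mitophagy receptors and enzymes that buffer pH or build collagen. Many glioblastomas use glycolysis even where oxygen is present, and CA9, ADM and BNIP3 are among the transcripts commonly read as marks of HIF activity. HIF protein and oxygen were not analysed here.

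Promoter windows were searched for the element that HIF binds. A script searched each promoter window of 300 bases in RefSeq (GRCh38.p14, 250 bases before and 50 after the start) for ACGTG, the core of the hypoxia response element, and for GCGTG, its common variant, on both strands. Of the 40 genes, 37 had an entry, and SLC2A3, BNIP3L and NDRG1 had none. A gene counted if any of its windows held the core. ACGTG was found for 22 of the 37 genes (59.5%), against 24.9% of all 27305 genes with an entry and 21.4% of all 35116 single windows. By role it was found for 11 of 16 enzymes (68.8%), 3 of 5 transport and flux genes, 8 of 13 other HIF targets (61.5%) and none of the 3 subunits. Either core was found for 33 of 37 genes (89.2%), against 52.4% of all genes. Genes with several windows, such as HK1 and PFKM with 7 each and SLC16A3 with 5, had more chances of a match. The number of windows was not matched between the 37 genes and all genes. The share over the genes tested was not computed, so these differences are not read as particular to the 37. Such a match is a description of the letters and not a measured site. Stretches of 60 bases upstream of the start are shown for 5 genes whose transcripts moved with both drugs, and for LDHA, which holds 5 upstream matches, both strands counted, and was called with neither in the main test; LDHA was picked after its values were seen. They are written 5′ to 3′ on the gene's strand, and capitals mark ACGTG or its reverse complement CACGT, and the variant GCGTG or its reverse complement CACGC. The palindrome CACGTG holds the core on both strands and is also an E-box, the element of MYC, MXI1 and BHLHE40.
PGK1, chrX:78104037-78104096, plus strand: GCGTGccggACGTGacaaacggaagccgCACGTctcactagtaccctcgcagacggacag
LDHA, chr11:18394462-18394521, plus strand: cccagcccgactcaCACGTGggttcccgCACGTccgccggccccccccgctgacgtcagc
CA9, chr9:35673868-35673927, plus strand: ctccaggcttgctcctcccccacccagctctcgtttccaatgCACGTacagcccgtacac
BNIP3, chr10:131982025-131982084, minus strand: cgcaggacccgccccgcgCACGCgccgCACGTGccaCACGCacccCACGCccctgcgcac
P4HA1, chr10:73096921-73096980, minus strand: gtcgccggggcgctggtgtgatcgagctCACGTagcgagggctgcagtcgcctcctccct
EGLN1, chr1:231422288-231422347, minus strand: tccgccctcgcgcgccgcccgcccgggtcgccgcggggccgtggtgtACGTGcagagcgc

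Library totals were 24159673 to 32318888 counts, and mitochondrially encoded genes took 2.37% to 4.58% of counts. Levels are given as CPM, counts relative to the library total scaled by a TMM factor. All 8 glioma and astroglial markers checked were at 1 CPM or more on average, whereas all 5 immune and all 4 endothelial markers were below it. Of the epithelial and neuronal lists, EPCAM, CDH1, RBFOX3 and STMN2 were also below it, but the other markers were above it. These were KRT8 at 209.7 to 394.8 CPM, KRT18 at 153.1 to 223.4, SYT1 at 13.29 to 22.35 and SNAP25 at 1.259 to 3.301. CD3E was at 0 in every library. A change was called at an adjusted p under 0.05 over the 16647 genes in the quasi-likelihood test of edgeR, and the values after ± are standard errors for log2 fold changes and SDs (n = 4) for levels.

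By level per kilobase with DMSO, 6 of the 16 glycolytic enzymes ranked among the first 86 of 16609 genes tested that had an exon length, and HIF targets covered a wide range of levels. Per kilobase of GENCODE 29 exon, the level with DMSO was 1366 ± 83.1 CPM per kb for GAPDH, 1197 ± 67.3 for ENO1, 907 ± 39.8 for PKM and 655 ± 27.4 for PGK1. The lowest members on that scale were CA12 at 0.58 ± 0.063 CPM per kb, ANKRD37 at 0.83 ± 0.17, ALDOC at 0.86 ± 0.17 and EPAS1 at 1.63 ± 0.11. HIF1A stood at 228 ± 9.19 CPM per kb with DMSO and ARNT at 7.74 ± 0.20. LDHA, the lactate dehydrogenase subunit that most glycolytic cells use, was low at 3.45 ± 0.25 CPM per kb, and its partner LDHB was at 202 ± 9.97 CPM per kb. Pseudogenes named after LDHA held 1.96% of its count, and no other counted gene with a GENCODE 29 match had exons that overlap LDHA. Overlap with genes that were not counted was not looked at. The cause of the low LDHA count was not tested.

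Irinotecan alone lowered most of the genes. With irinotecan against DMSO, 31 of 40 fell and 2 rose, where 11.7% of all genes tested were called lower and 12.4% higher. The 31 were 13 of 16 enzymes, 5 of 6 transport and flux genes, 12 of 15 other HIF targets and HIF1A, and the 2 that rose were EPAS1 and PFKM. The median log2 fold change was -0.35 over the enzymes, -0.43 over the transport and flux genes and -0.35 over the other HIF targets, against -0.00021 over all genes tested. The groups did not overlap, with irinotecan lower, for 29 of 40 genes (11.1% of all genes). In bulk RNA, fewer cells of a kind and less RNA per cell cannot be told apart. Glial markers moved with the same drug: 6 of 8 fell, their summed level was 5446 to 5604 CPM with irinotecan and 7254 to 7565 CPM with DMSO, and KRT8 and KRT18 of the epithelial list rose while EPCAM and CDH1 stayed under 1 CPM. Of the other marker lists, 1 of 3 neuronal and 1 of 2 endothelial markers tested rose. The part of these lists in the result was not tested. With library totals as the only scaling, 77.8% of genes called in this comparison were higher, against 51.4% with TMM factors, and every member named here as fallen kept its call except HIF1A (adjusted p = 0.43) and MXI1 (adjusted p = 0.0663).

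Simvastatin alone raised transcripts of 3 of the 4 roles and lowered none. With simvastatin against DMSO, 17 of 40 rose, where 3.89% of all genes tested were called higher, and none fell, where 2.11% were called lower. At an unadjusted p under 0.05, edgeR placed 28 members higher and 1 lower, and DESeq2 called 21 higher and none lower. The rise covered 10 of 15 other HIF targets and 4 of 6 transport and flux genes but only 3 of 16 enzymes (HK2, PFKP and PGK1) and no subunit. Medians were 0.26 for the other HIF targets, 0.26 for the transport and flux genes and 0.10 for the enzymes, against -0.0073 over all genes tested. For 22 of 40 genes the simvastatin libraries all lay above the DMSO libraries (5.76% of all genes), and for none did they all lie below (4.24%). Both single-drug comparisons share the DMSO libraries, so their values are given gene by gene side by side and their overlap is not counted. The glial markers summed to 7018 to 7161 CPM with simvastatin, against 7254 to 7565 CPM with DMSO, and 3 of 8 were called lower (GFAP, SOX2 and CD44), as was KRT8 of the 2 epithelial markers tested, while SYT1 of the 3 neuronal markers tested was higher. FABP7 of the glial list went the other way, at 262.7 to 271.8 CPM with simvastatin and 246.0 to 252.3 CPM with DMSO. No glial marker was called higher in edgeR, 1 was higher there at an unadjusted p under 0.05, and DESeq2 called 1 higher. The part of these markers in the result was not tested. With the 12 numbered libraries alone, the calls of PFKP (adjusted p = 0.0601), PDK1 (0.0784), EGLN3 (0.0722) and MXI1 (0.0505) were lost.

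In the combination the group means of 32 of 40 genes lay above that of irinotecan and below that of DMSO. The share of all genes with this order was not computed, so the count is not read as particular to these genes. Against DMSO, 27 genes fell with the combination (13.0% of all genes were called lower) and 2 rose, EPAS1 and P4HA2 (15.1% called higher). Medians were -0.23 for the enzymes, -0.25 for the transport and flux genes and -0.22 for the other HIF targets, against 0.00012 for all genes tested. The 27 comprised 13 enzymes, 5 transport and flux genes, 8 other HIF targets and HIF1A. For 25 of 40 genes the combination libraries all lay below the DMSO libraries (11.5% of all genes), and for EPAS1 all lay above (14.7%). Glial markers summed to 5398 to 5535 CPM with the combination, against 7254 to 7565 CPM with DMSO, and 6 of 8 fell, while both epithelial markers tested and 2 of 3 neuronal markers rose and the 2 endothelial markers tested were called in opposite directions. The part of these markers in the result was not tested. With library totals alone, 73.4% of called genes in this comparison were higher, against 53.8% with TMM factors, and HIF1A (adjusted p = 0.192) and SLC16A3 (adjusted p = 0.141) were not called.

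Adding simvastatin to irinotecan raised 17 of 40 genes and lowered none (combination against irinotecan, where 5.94% of all genes tested were called, 4.45% higher and 1.5% lower). No member was lower at an unadjusted p under 0.05 in edgeR or called lower by DESeq2, which called 18 higher. The 17 were 8 other HIF targets, 4 transport and flux genes, 4 enzymes (HK2, PFKP, PGK1 and PGAM1) and EPAS1. Medians were 0.17 for the other HIF targets, 0.19 for the transport and flux genes and 0.10 for the enzymes, against -0.0036 for all genes tested. For 14 of 40 the combination libraries all lay above the irinotecan libraries (8.01% of all genes), and for none all below (5.06%). Of the markers, 1 of 8 glial was higher and 1 lower, and 1 of 2 epithelial was lower. Their part in the result was not tested. With library totals alone, 62.9% of called genes were higher here, against 74.8% with TMM factors, and PFKFB3 was not called (adjusted p = 0.0533). With the 12 numbered libraries alone, the calls of PFKP (adjusted p = 0.0626), PGAM1 (0.114), PFKFB3 (0.0619) and ADM (0.0532) were lost.

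Adding irinotecan to simvastatin lowered 33 of 40 genes and raised EPAS1 alone (combination against simvastatin, where 25.6% of all genes tested were called, 11.7% lower and 13.9% higher). These were 14 enzymes, all 6 transport and flux genes and 13 other HIF targets, with medians of -0.37, -0.45 and -0.38 in that order, against -0.0044 for all genes tested. For 33 of 40 the combination libraries all lay below the simvastatin libraries (12.1% of all genes). With library totals alone, 73.4% of called genes were higher here, against 54.1% with TMM factors, and 2 members were called higher, EPAS1 and PFKM (adjusted p = 0.0231). Glial markers summed to 5398 to 5535 CPM with the combination, against 7018 to 7161 CPM with simvastatin, and 6 of 8 fell, while both epithelial markers tested, 1 of 3 neuronal and 1 of 2 endothelial markers rose. Their part in the result was not tested.

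**Figure D1:**
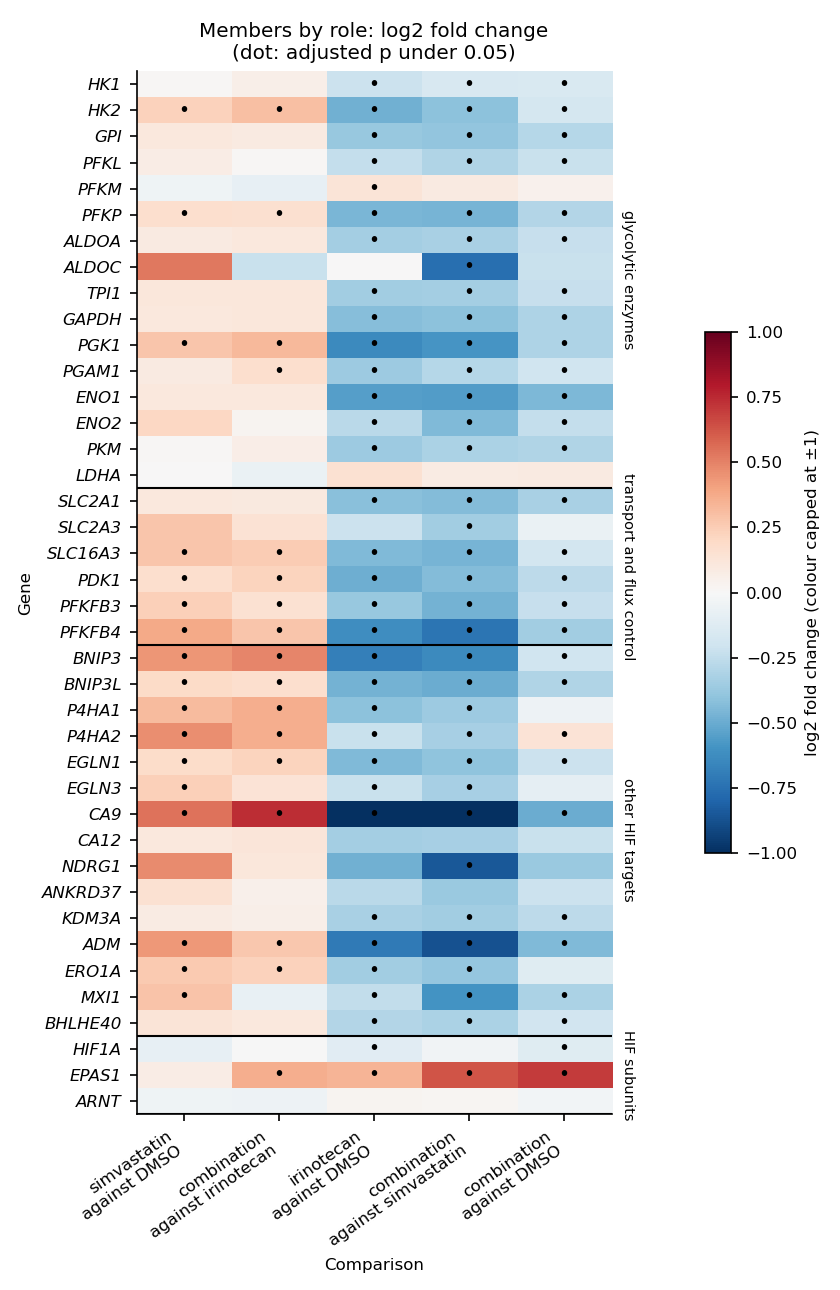
Log2 fold change of the 40 genes (rows, by role) in 5 comparisons (columns), with colour from blue (lower) to red (higher) and a dot where the adjusted p was under 0.05. The simvastatin columns are mostly red with 17 dots each, and the 3 columns with irinotecan or the combination against a group without irinotecan are mostly blue; EPAS1 is red in all 5, with no dot for simvastatin against DMSO.

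Phosphoglycerate kinase, PGK1, makes ATP from the product of GAPDH, and it was the enzyme that moved most clearly with both drugs (ENSG00000102144, GRCh38 chromosome X, 77910739 to 78129296). PGK1 had 3028, 2809.5, 2875 and 2951 CPM with the combination, 4335, 4344, 4395 and 4462 with simvastatin, 2433, 2222, 2314 and 2330.4 with irinotecan, against 3749, 3401, 3684 and 3609 with DMSO. The 4 groups did not overlap, in the order simvastatin, DMSO, combination and irinotecan from high to low. Its log2 fold change was -0.64 ± 0.035 with irinotecan (adjusted p = 1.29e-14), 0.28 ± 0.034 with simvastatin (adjusted p = 1.04e-06) and -0.31 ± 0.035 with the combination (adjusted p = 3.56e-08), all against DMSO. HK2, the inducible hexokinase that phosphorylates glucose on entry, had 92.8, 88.1, 89.2 and 96.3 CPM with the combination, 119, 119.8, 129 and 118 with simvastatin, 76.3, 66.6, 78.6 and 75.7 with irinotecan, against 104, 103, 108 and 98.9 with DMSO. PFKP, the platelet-type phosphofructokinase that catalyses the committed step, had 212, 203, 192 and 211 CPM with the combination, 278, 286, 282 and 282 with simvastatin, 189.9, 179.8, 177 and 187 with irinotecan, against 262, 238, 257 and 247 with DMSO. Both followed the order of PGK1 with no overlap between the 4 groups. With irinotecan HK2 changed by -0.48 ± 0.046 and PFKP by -0.45 ± 0.038 on the log2 scale (adjusted p = 2.24e-09 and 1.44e-10), and with simvastatin by 0.23 ± 0.046 and 0.17 ± 0.038 (adjusted p = 0.0011 and 0.00471).

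Enolase, pyruvate kinase and GAPDH fell with irinotecan and were not called with simvastatin. ENO1, the ubiquitous enolase, had 4884, 4497, 4448 and 4701 CPM with the combination, 6909.9, 6821, 6588 and 6912 with simvastatin, 4524, 4348, 4218 and 4127 with irinotecan, against 6762, 5983, 6428 and 6079.8 with DMSO. All 8 libraries with irinotecan lay below all 8 without it, while simvastatin overlapped DMSO and the combination overlapped irinotecan. ENO1 changed by -0.55 ± 0.038 on the log2 scale with irinotecan (adjusted p = 2.2e-12) and by -0.45 ± 0.038 with the combination (adjusted p = 1.68e-10), whereas the simvastatin value was 0.11 ± 0.038 (adjusted p = 0.0924; 0.0202 without DMSO replicate 1). PKM, the pyruvate kinase of the last ATP-forming step, had 6545, 6250.0, 6107 and 6374 CPM with the combination, 7888, 7785, 7736 and 8006 with simvastatin, 6219.7, 6162, 5913 and 5898 with irinotecan, against 8128, 7342, 7945 and 7685 with DMSO. GAPDH, which oxidises glyceraldehyde phosphate, had 3434, 3214, 3143 and 3363 CPM with the combination, 4455, 4327, 4156 and 4546 with simvastatin, 3179, 3089, 2955 and 2932 with irinotecan, against 4392, 3789, 4071 and 4033 with DMSO. Both showed the split of ENO1: the 8 irinotecan-treated libraries were lowest, with no further separation by simvastatin. The log2 fold change with irinotecan was -0.36 ± 0.033 for PKM and -0.42 ± 0.040 for GAPDH (adjusted p = 7.05e-10 and 1.84e-09), and with simvastatin it was 0.015 ± 0.033 and 0.10 ± 0.040 (adjusted p = 0.894 and 0.147; GAPDH 0.0304 without DMSO replicate 1). In the combination against irinotecan edgeR called GAPDH higher with only the groups compared (adjusted p = 0.0393). GAPDH is often used as a loading control.

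The isomerase GPI and the mutase PGAM1 stood between these patterns. GPI had 652, 582, 574 and 604 CPM with the combination, 802, 804, 774 and 782 with simvastatin, 597, 563, 559 and 549 with irinotecan, against 785, 679.5, 738 and 737 with DMSO. PGAM1 had 228, 225, 214 and 231 CPM with the combination, 271, 272, 268 and 281 with simvastatin, 206, 210.2, 196 and 187 with irinotecan, against 269, 247, 261 and 250 with DMSO. Simvastatin and DMSO libraries overlapped for both, and the combination lay wholly above irinotecan for PGAM1 alone. PGAM1 changed by -0.36 ± 0.039 with irinotecan (adjusted p = 1.76e-08) and by 0.17 ± 0.039 in the combination against irinotecan (adjusted p = 0.00617), and GPI by -0.38 ± 0.041 with irinotecan (adjusted p = 2.78e-08).

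The remaining enzymes fell with irinotecan by smaller amounts, with 3 exceptions. Log2 fold changes with irinotecan were -0.35 for the triose phosphate isomerase TPI1, -0.34 for the main aldolase ALDOA, -0.27 for the neuronal enolase ENO2, -0.24 for the liver-type phosphofructokinase PFKL and -0.21 for the housekeeping hexokinase HK1, all called. TPI1 was called higher with simvastatin in edgeR without DMSO replicate 1 (adjusted p = 0.0215) or simvastatin replicate 3 (0.0455). In the combination against irinotecan it was called higher by DESeq2 (0.0339) and by edgeR with only the groups compared (0.0373). Leaving out combination replicate 3, simvastatin replicate 3 or DMSO replicate 1 or 2 also gave that call (0.039 to 0.0495). With simvastatin ENO2 was at 0.20 ± 0.061 (adjusted p = 0.0512). It was called higher by DESeq2 (0.0235), with no filter (0.000337), with only the groups compared (0.0229), with the 12 numbered libraries (0.018) and with a replicate block over them (2.23e-05). Among the fits with 1 library left out, 5 called it, from 0.0159 without combination replicate 4 to 0.0411 without irinotecan replicate 3. PFKM, the muscle-type phosphofructokinase, was higher by 0.13 ± 0.046 (adjusted p = 0.0447), a call lost when any of 9 libraries was left out (adjusted p up to 0.185). ALDOC, the brain-type aldolase, was sparse at 2.17 ± 0.32 CPM with the combination, 3.66 ± 0.72 with simvastatin, 2.52 ± 0.64 with irinotecan and 2.53 ± 0.50 with DMSO. In the main test ALDOC was called only in the combination against simvastatin (-0.75 ± 0.18, adjusted p = 0.00236). It was called higher with simvastatin by edgeR with no filter (adjusted p = 0.0318) and without simvastatin replicate 3 (0.0453). LDHA had 22.96, 21.1, 23.4 and 23.6 CPM with the combination, 22.5, 21.99, 20.3 and 21.2 with simvastatin, 24.7, 23.3, 22.6 and 24.7 with irinotecan, against 20.6, 19.96, 23.5 and 21.6 with DMSO. Its groups overlapped in every comparison and none was called: the value was 0.15 ± 0.060 with irinotecan (adjusted p = 0.0666, 95% interval 0.034 to 0.27) and 0.0036 ± 0.061 with simvastatin (adjusted p = 0.988, 95% interval -0.12 to 0.12). With library totals as the only scaling (0.23, adjusted p = 0.00403) and without DMSO replicate 3 (0.20, adjusted p = 0.0207), LDHA was called higher with irinotecan.

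**Figure D2:**
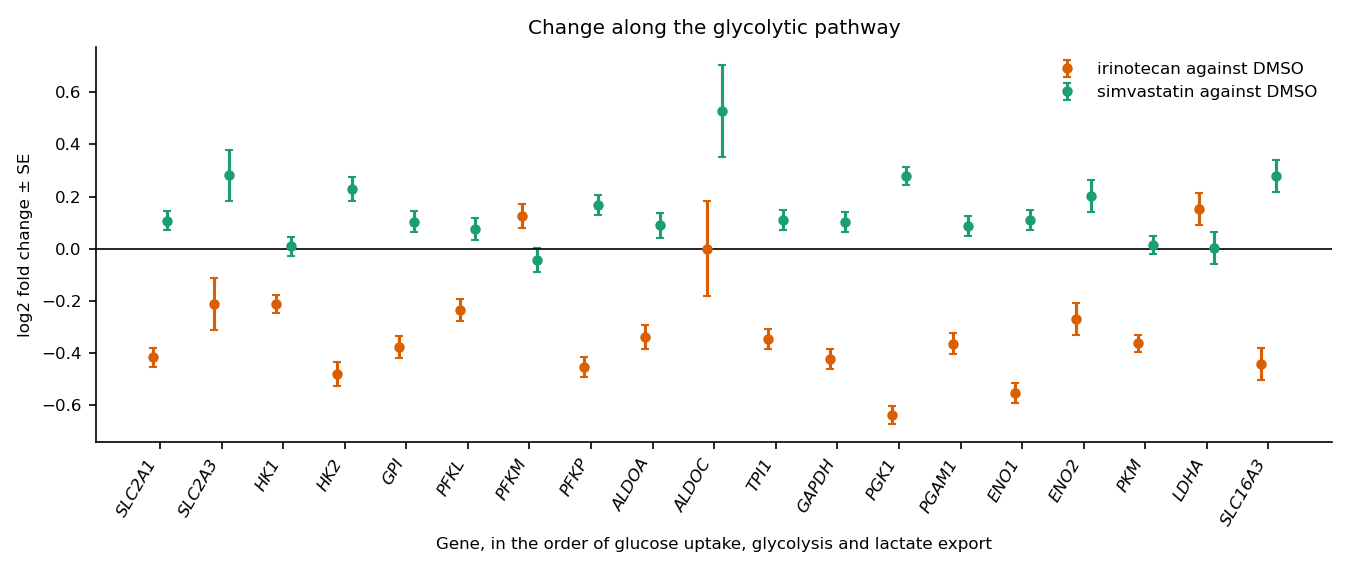
Log2 fold change with its standard error (vertical axis) along the pathway from glucose uptake to lactate export (horizontal axis), for irinotecan against DMSO (orange) and simvastatin against DMSO (green). Irinotecan values lie below 0 for all genes shown but PFKM, LDHA and ALDOC, from -0.21 for HK1 and SLC2A3 (the second not called) to -0.64 for PGK1, and simvastatin values are highest for ALDOC, SLC2A3, PGK1 and SLC16A3.

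Transcripts of the main glucose transporter and of the lactate exporter fell with irinotecan. SLC2A1, which encodes the glucose transporter GLUT1, had 638, 587, 609 and 633 CPM with the combination, 838, 811, 837 and 839 with simvastatin, 574, 572, 572 and 594 with irinotecan, against 786, 715, 801 and 783 with DMSO. All 8 libraries with irinotecan lay below all 8 without, and simvastatin lay wholly above DMSO without being called (0.11 ± 0.036, adjusted p = 0.0711; 0.0387 with library totals alone, 0.0354 by DESeq2 and 0.0462 without DMSO replicate 3). SLC2A1 fell with irinotecan by -0.42 ± 0.036 and with the combination by -0.32 ± 0.036 (log2 fold changes, adjusted p = 2.12e-10 and 3.14e-08). SLC16A3, which encodes the lactate exporter MCT4, had 398, 362, 341 and 378 CPM with the combination, 515, 511, 497 and 517 with simvastatin, 329.6, 314, 307 and 286 with irinotecan, against 466, 394, 448 and 372 with DMSO. Simvastatin libraries were all above DMSO and irinotecan libraries all below, at 0.28 ± 0.062 (adjusted p = 0.00874) and -0.44 ± 0.062 (adjusted p = 2.97e-05) on the log2 scale. For SLC16A3 the combination overlapped DMSO, and its call against DMSO (-0.18 ± 0.062, adjusted p = 0.0342) was lost without any of 5 libraries (combination replicate 2 or 3, simvastatin replicate 3, DMSO replicate 1 or 3, adjusted p = 0.0549 to 0.106). With only the groups compared, SLC16A3 also lost that call (adjusted p = 0.104). Its call against irinotecan (0.26 ± 0.062, adjusted p = 0.0177) was lost without combination replicate 1 (0.0536) or irinotecan replicate 4 (0.0537). Exons of CSNK1D on the opposite strand overlap 5.36% of SLC16A3. SLC2A3, which encodes the neuronal-type transporter GLUT3, had 50.4, 38.4, 45.7 and 49.9 CPM with the combination, 56.3, 59.6, 65.8 and 52.8 with simvastatin, 42.6, 33.9, 44.1 and 46.5 with irinotecan, against 47.04, 46.6, 50.5 and 48.9 with DMSO. Simvastatin libraries lay above all others and irinotecan libraries narrowly below DMSO, and its 1 call was in the combination against simvastatin (-0.35 ± 0.098, adjusted p = 0.0165; 0.0529 without simvastatin replicate 3). Its simvastatin value (0.28 ± 0.098, adjusted p = 0.123) was called by DESeq2 (0.026), with no filter (0.00598), with only the groups compared (0.0039), and without combination replicate 2 (0.0426) or irinotecan replicate 2 (0.0186).

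Regulators of glycolytic flux responded to both drugs. PFKFB4 and PFKFB3 make and break fructose 2,6-bisphosphate, the main activator of phosphofructokinase, and PDK1 phosphorylates and inhibits pyruvate dehydrogenase, which converts pyruvate to acetyl-CoA in mitochondria. PFKFB4 had 88.1, 80.3, 74.7 and 87.6 CPM with the combination, 138, 143, 138 and 129 with simvastatin, 69.6, 62.5, 66.8 and 74.6 with irinotecan, against 107, 102, 108 and 103 with DMSO. PFKFB3 had 147, 139, 139 and 153 CPM with the combination, 194, 202, 213 and 193 with simvastatin, 129, 123, 131 and 138 with irinotecan, against 172, 165, 175 and 167 with DMSO. PDK1 had 67.5, 60.9, 64.3 and 65.3 CPM with the combination, 84.1, 87.3, 89.2 and 87.4 with simvastatin, 54.99, 49.5, 56.9 and 59.7 with irinotecan, against 77.2, 75.99, 77.5 and 78.9 with DMSO. In all 3 genes, simvastatin was highest, then DMSO, the combination and irinotecan, with no overlap between groups. With irinotecan the log2 fold changes were -0.62 ± 0.052 for PFKFB4, -0.38 ± 0.042 for PFKFB3 and -0.49 ± 0.047 for PDK1 (adjusted p = 1.8e-10, 2.64e-08 and 2.09e-09). With simvastatin they were 0.38 ± 0.050, 0.24 ± 0.041 and 0.17 ± 0.046 (adjusted p = 4.09e-06, 0.000184 and 0.0216), and the PDK1 call was lost without simvastatin replicate 2 or 4 or DMSO replicate 2 (adjusted p = 0.0513 to 0.0635). Against irinotecan the combination was higher by 0.28 ± 0.052, 0.15 ± 0.042 and 0.22 ± 0.047 in the same order (adjusted p = 0.000759, 0.0252 and 0.0025), and the PFKFB3 call was lost without combination replicate 1 or 4 or irinotecan replicate 1 or 2 (adjusted p = 0.0623 to 0.108).

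**Figure D3:**
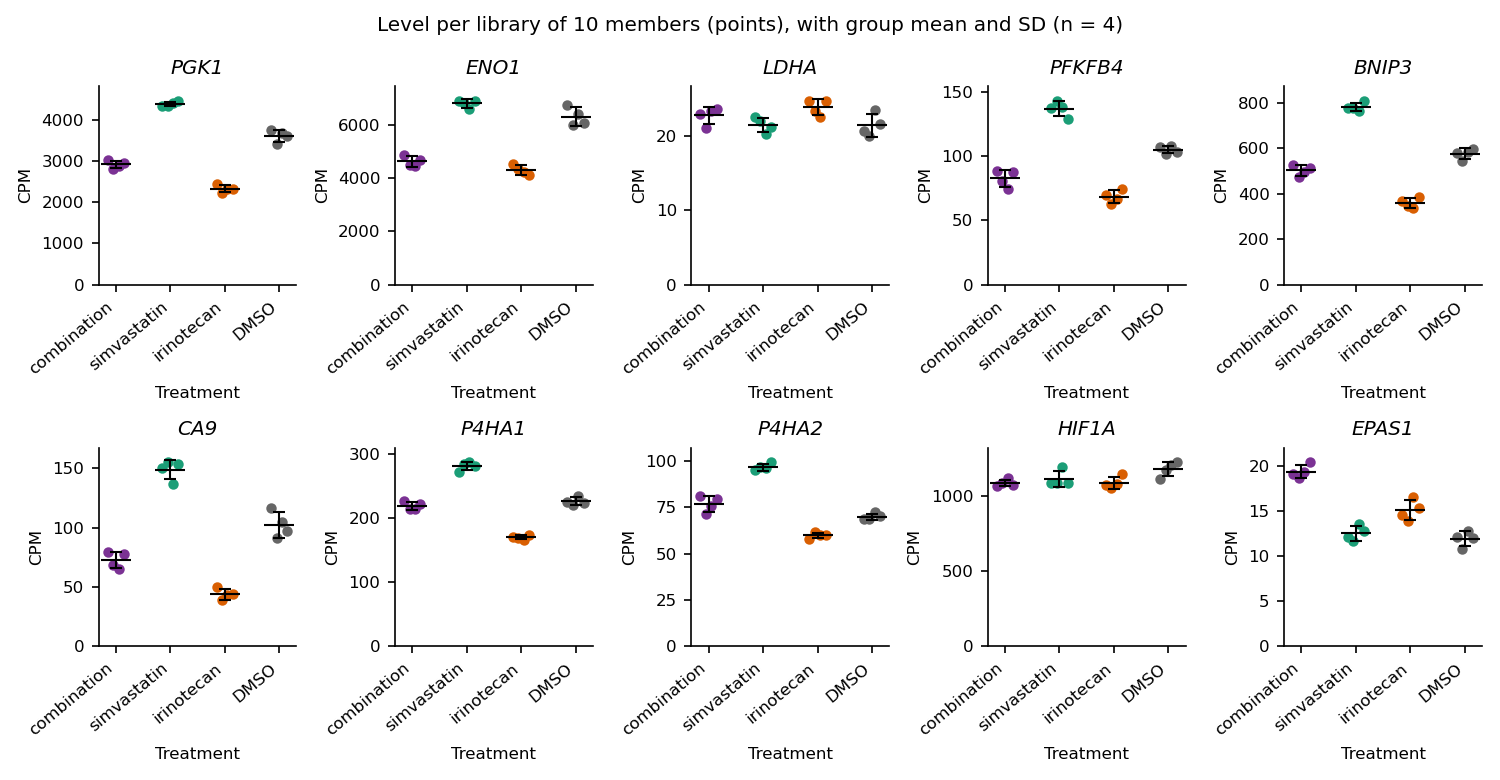
CPM per library (points) with group mean and SD (n = 4) for 10 of the genes, vertical axes from 0, groups from left to right combination, simvastatin, irinotecan and DMSO. PGK1, BNIP3, CA9 and PFKFB4 separate all 4 groups, ENO1 separates the libraries by irinotecan, and EPAS1 is highest with the combination.

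Among the other HIF targets, CA9 had the largest log2 change with irinotecan of the 40 genes. It encodes carbonic anhydrase IX, a membrane enzyme that acidifies the outside of hypoxic tumour cells (ENSG00000107159, GRCh38 chromosome 9, 35673856 to 35681159). CA9 had 79.8, 68.5, 64.9 and 77.3 CPM with the combination, 150.1, 155, 137 and 154 with simvastatin, 49.6, 38.6, 42.7 and 43.5 with irinotecan, against 117, 91.02, 105 and 97.3 with DMSO. No groups overlapped, with simvastatin highest, then DMSO, the combination and irinotecan. The fold was 0.43 with irinotecan (log2 -1.23 ± 0.090, adjusted p = 5.35e-08), 1.45 with simvastatin (log2 0.54 ± 0.085, adjusted p = 0.000831) and 1.67 in the combination against irinotecan (log2 0.74 ± 0.091, adjusted p = 9.4e-05). Exons of ARHGEF39 on the opposite strand overlap 38.5% of CA9, whose reads cannot be separated if counting ignored strand. ARHGEF39 held 26.0% of the CA9 count, and it was at -0.14 ± 0.067 with irinotecan (adjusted p = 0.133) and -0.24 ± 0.068 with simvastatin (adjusted p = 0.0265), so its simvastatin change had the opposite sign to that of CA9.

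The mitophagy receptors BNIP3 and BNIP3L, which tag mitochondria for removal, moved alike. BNIP3 had 526, 474, 494 and 514 CPM with the combination, 775, 778, 763 and 808 with simvastatin, 367, 344, 336 and 387 with irinotecan, against 579.6, 543, 583 and 596 with DMSO. BNIP3L had 225, 212, 222 and 232 CPM with the combination, 305, 314, 322 and 314 with simvastatin, 196, 186, 198 and 213 with irinotecan, against 264, 275, 279.5 and 281 with DMSO. Simvastatin was highest and irinotecan lowest for both, with no overlap between groups except between the combination and irinotecan for BNIP3L. Log2 fold changes for BNIP3 were -0.68 ± 0.041 with irinotecan and 0.44 ± 0.041 with simvastatin (adjusted p = 1.31e-13 and 5.59e-09), and for BNIP3L -0.47 ± 0.038 and 0.19 ± 0.038 (adjusted p = 7.34e-11 and 0.00127). In the combination against irinotecan, BNIP3 was higher by 0.49 ± 0.041 (adjusted p = 1.54e-09), the smallest p of any member in that comparison. Exons of PNMA2 overlap 7.66% of BNIP3L, and pseudogenes named after BNIP3 held 0.757% of its count.

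The collagen prolyl hydroxylases P4HA1 and P4HA2, which hydroxylate collagen before its secretion, were lower with irinotecan but not in the combination against DMSO, as were EGLN3 and ERO1A, the second at -0.12 ± 0.050 (adjusted p = 0.0777; 0.0107 with only the groups compared, 0.0492 with no filter and 0.0186 without irinotecan replicate 4). P4HA1 had 226, 213, 213 and 221 CPM with the combination, 271, 284, 287 and 281 with simvastatin, 169, 169, 166 and 174 with irinotecan, against 224, 221, 234 and 223 with DMSO. P4HA2 had 81.1, 71.2, 75.9 and 79.8 CPM with the combination, 95.1, 96.7, 96.2 and 99.5 with simvastatin, 58.1, 61.6, 59.9 and 59.8 with irinotecan, against 68.9, 68.6, 72.3 and 70.2 with DMSO. For P4HA1 the combination overlapped DMSO (-0.049 ± 0.034, adjusted p = 0.31), while irinotecan lay wholly below DMSO (-0.41 ± 0.034, adjusted p = 1.05e-10) and simvastatin wholly above (0.31 ± 0.034, adjusted p = 9.86e-08). P4HA2 rose with simvastatin by 0.47 ± 0.041 (adjusted p = 1.88e-09), the smallest p of any member there, and fell with irinotecan by -0.23 ± 0.042 (adjusted p = 0.000133). In the combination P4HA2 was above DMSO by 0.14 ± 0.042 (adjusted p = 0.0136), a call lost without combination replicate 1 (0.0734) or 4 (0.0552) and with the 12 numbered libraries (0.0932).

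The oxygen sensors EGLN1 and EGLN3 are prolyl hydroxylases that act on the HIF alpha subunits and are themselves HIF targets. EGLN1 had 121, 123, 130.0 and 126 CPM with the combination, 158, 161, 173 and 167 with simvastatin, 107, 97.1, 107 and 116 with irinotecan, against 144, 140.4, 148 and 147 with DMSO. No groups overlapped, and the log2 fold change was -0.44 ± 0.044 with irinotecan and 0.19 ± 0.043 with simvastatin (adjusted p = 3.86e-09 and 0.00545). EGLN3 averaged 54.7 ± 3.54 CPM with the combination, 68.6 ± 1.63 with simvastatin, 49.9 ± 4.12 with irinotecan and 58.2 ± 4.08 with DMSO, and was called with irinotecan (-0.23 ± 0.057, adjusted p = 0.00339) and simvastatin (0.24 ± 0.056, adjusted p = 0.00709).

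ADM encodes adrenomedullin, a vasodilator peptide. ADM had 59.9, 51.8, 65.6 and 66.4 CPM with the combination, 109, 115, 112 and 109.8 with simvastatin, 51.7, 46.7, 52.95 and 51.5 with irinotecan, against 83.6, 78.2, 83.2 and 85.9 with DMSO. Simvastatin was wholly above DMSO and both groups with irinotecan wholly below, with log2 fold changes of 0.43 ± 0.055, -0.71 ± 0.057 with irinotecan and -0.44 ± 0.056 with the combination (adjusted p = 3.32e-06, 1.89e-10 and 6.91e-07). ERO1A, an oxidase that forms disulfide bonds in the endoplasmic reticulum, had 91.0, 88.5, 92.3 and 90.8 CPM with the combination, 113, 121, 123 and 116 with simvastatin, 72.7, 71.7, 75.6 and 89.2 with irinotecan, against 96.3, 94.6, 102 and 101 with DMSO. Only irinotecan replicate 4 reached the combination libraries, and ERO1A changed by -0.35 ± 0.051 with irinotecan and 0.26 ± 0.050 with simvastatin (adjusted p = 3.49e-06 and 0.000675). KDM3A, a histone H3 lysine demethylase, had 93.7, 99.1, 106 and 102 CPM with the combination, 126, 135, 130.2 and 117 with simvastatin, 96.5, 92.6, 92.8 and 103 with irinotecan, against 115, 131, 116 and 119 with DMSO. It followed ENO1 in separating libraries by irinotecan alone, with -0.32 ± 0.049 (adjusted p = 7.3e-06) against 0.082 ± 0.048 with simvastatin (adjusted p = 0.413).

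MXI1, a repressor that opposes MYC, had 21.7, 18.4, 17.3 and 18.7 CPM with the combination, 27.1, 28.97, 29.1 and 29.8 with simvastatin, 20.4, 18.1, 19.6 and 21.95 with irinotecan, against 23.1, 21.7, 25.4 and 24.3 with DMSO. The simvastatin libraries stood above all others, and DMSO and irinotecan overlapped. MXI1 rose with simvastatin by 0.28 ± 0.067 (adjusted p = 0.00706) and fell with irinotecan by -0.24 ± 0.069 (adjusted p = 0.00886) and in the combination against simvastatin by -0.60 ± 0.069 (adjusted p = 7.36e-08). BHLHE40, a circadian and hypoxia repressor, was lower with irinotecan (-0.30 ± 0.044, adjusted p = 4.41e-06) and not called with simvastatin (0.13 ± 0.043, adjusted p = 0.089). NDRG1, a growth-arrest gene, was among the most variable, at 101 ± 15.2 CPM with the combination, 181 ± 21.9 with simvastatin, 93.8 ± 19.7 with irinotecan and 131 ± 19.6 with DMSO. It was called only in the combination against simvastatin (-0.85 ± 0.16, adjusted p = 0.00198), and its value with irinotecan was -0.48 ± 0.16 (adjusted p = 0.0507). DESeq2 called it lower with irinotecan (adjusted p = 0.0173) and higher with simvastatin (adjusted p = 0.0439), and edgeR called the irinotecan value with median-ratio size factors (0.0473), with the 12 numbered libraries (0.0303), and without irinotecan replicate 4 (0.017) or DMSO replicate 2 (0.0386). CA12, a second membrane carbonic anhydrase, and ANKRD37 had at most 5.11 CPM in any library and were called in no comparison with all libraries. CA12 was called lower with irinotecan without irinotecan replicate 1 (adjusted p = 0.0323). In the combination against simvastatin CA12 was called lower without simvastatin replicate 4 (0.0384) and with the 12 numbered libraries (0.0318). For ANKRD37, 35.2% of the exons overlap UFSP2.

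Of the HIF subunits, HIF1A fell slightly with irinotecan, EPAS1 rose and ARNT was not called. HIF1A had 1064, 1083, 1114 and 1069 CPM with the combination, 1082, 1082, 1190.3 and 1085 with simvastatin, 1070.0, 1052, 1076 and 1144 with irinotecan, against 1113, 1170.3, 1202 and 1222 with DMSO. Irinotecan, simvastatin and the combination each overlapped DMSO, and HIF1A was lower by -0.12 ± 0.037 with irinotecan (adjusted p = 0.0201) and -0.12 ± 0.037 with the combination (adjusted p = 0.0147). Without irinotecan replicate 2, DMSO replicate 3 or DMSO replicate 4 the irinotecan call was lost (adjusted p = 0.0596 to 0.0808), and without DMSO replicate 4 (0.0537) and with the 12 numbered libraries (0.117) the combination call was lost. With simvastatin HIF1A was not called with all libraries, but it was lower at an unadjusted p under 0.05 in edgeR. It was called lower with simvastatin without simvastatin replicate 3 (-0.12 ± 0.036, adjusted p = 0.0339). EPAS1, the gene of HIF-2α (ENSG00000116016, GRCh38 chromosome 2, 46293667 to 46386703), had 19.04, 18.6, 19.3 and 20.4 CPM with the combination, 12.1, 11.6, 13.5 and 12.7 with simvastatin, 14.5, 13.9, 16.5 and 15.3 with irinotecan, against 12.1, 10.8, 12.8 and 11.9 with DMSO. All combination libraries stood above all irinotecan libraries, which stood above all others, while simvastatin overlapped DMSO. EPAS1 rose with irinotecan by 0.34 ± 0.073 (adjusted p = 0.000728), with the combination by 0.70 ± 0.072 (adjusted p = 6.2e-09) and in the combination against irinotecan by 0.36 ± 0.069 (adjusted p = 0.000753), and its value with simvastatin was 0.072 ± 0.075 (adjusted p = 0.712, 95% interval -0.074 to 0.22). ARNT had 49.7, 48.1, 48.5 and 52.3 CPM with the combination, 48.3, 48.7, 52.4 and 46.2 with simvastatin, 47.03, 50.3, 51.1 and 56.9 with irinotecan, against 49.2, 49.99, 50.3 and 52.2 with DMSO. The groups overlapped, and no ARNT comparison was called, with 95% intervals of -0.076 to 0.12 for irinotecan and -0.14 to 0.057 for simvastatin.

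Whether the drugs acted independently was asked by the interaction, which is how far the combination lay from the sum of the 2 single-drug log2 changes. No member was called (0.012% of all genes were called, all of them lower). At an unadjusted p under 0.05, edgeR placed 1 member higher (EPAS1) and 3 lower (MXI1, ALDOC and ADM), and DESeq2 called none. The values nearest to a call were -0.35 ± 0.097 for MXI1 (adjusted p = 0.604), -0.75 ± 0.26 for ALDOC (adjusted p = 0.817) and 0.29 ± 0.10 for EPAS1 (adjusted p = 0.823). The 95% intervals for strongly moving genes were -0.049 to 0.14 for PGK1, -0.11 to 0.10 for ENO1 and -0.068 to 0.16 for BNIP3, and wider for CA9 at -0.047 to 0.44. They rest on a normal approximation and can be too narrow. These values are from fits without a replicate block. With a block over the 12 numbered libraries, edgeR called 190 genes in the interaction, among them 1 member, ENO2 (-0.26 ± 0.058, adjusted p = 0.00937).

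The same drug effect can be read in 2 sets of libraries that share none. The effect of irinotecan without simvastatin (irinotecan against DMSO) and with it (combination against simvastatin) had the same sign for 39 of 40 genes (97.5%), against 76.3% of all genes tested, with Pearson r = 0.82 and Spearman rho = 0.75 over the 40 genes, against 0.64 and 0.63 over all. ALDOC was the gene with different signs. The effect of simvastatin without irinotecan and with it (combination against irinotecan) had the same sign for 37 of 40 (92.5%), against 63.75% of all genes, with r = 0.51 and rho = 0.55, against 0.27 and 0.32 over all. These are descriptions across genes, which are not independent replicates. ALDOC, MXI1 and LDHA were the genes with different signs there.

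**Figure D4:**
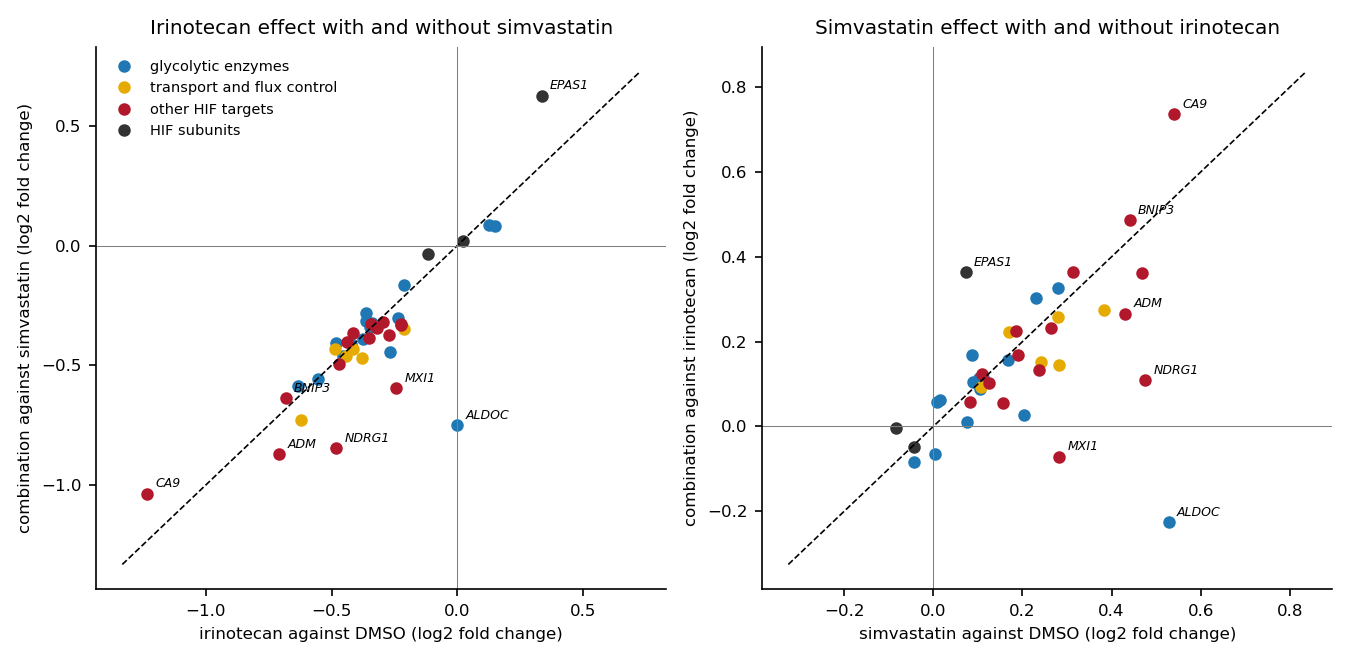
Left, log2 fold change of irinotecan against DMSO (horizontal) and of the combination against simvastatin (vertical); right, simvastatin against DMSO (horizontal) and the combination against irinotecan (vertical), for the 40 genes coloured by role, with the line of equal values. Most points lie near the line on the left, with ALDOC, MXI1 and NDRG1 below it and EPAS1 above, and on the right ALDOC, MXI1 and LDHA lie above 0 on the horizontal axis and below 0 on the vertical.

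Summed over each role, the enzymes took a large share of all counts. The 16 enzymes summed to 21208 ± 785 CPM with the combination, 28493 ± 548 with simvastatin, 19498 ± 613 with irinotecan and 26515 ± 1304 with DMSO, which is 2.12%, 2.85%, 1.95% and 2.65% of the scaled counts in that order. The 6 transport and flux genes summed to 1325 ± 63 CPM with the combination, 1824 ± 11 with simvastatin, 1183 ± 21 with irinotecan and 1592 ± 79 with DMSO. For the 15 other HIF targets the sums were 1826 ± 73 CPM with the combination, 2649 ± 45 with simvastatin, 1495 ± 87 with irinotecan and 2116 ± 57 with DMSO. The irinotecan libraries lay below the DMSO libraries for all 3 sums, and the simvastatin libraries lay above the DMSO libraries for the transport and flux genes and the other HIF targets but overlapped them for the enzymes. The sum of the 3 subunits, nearly all HIF1A, was 1152 ± 21 CPM with the combination, 1171 ± 57 with simvastatin, 1152 ± 44 with irinotecan and 1239 ± 49 with DMSO, with overlapping groups.

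**Figure D5:**
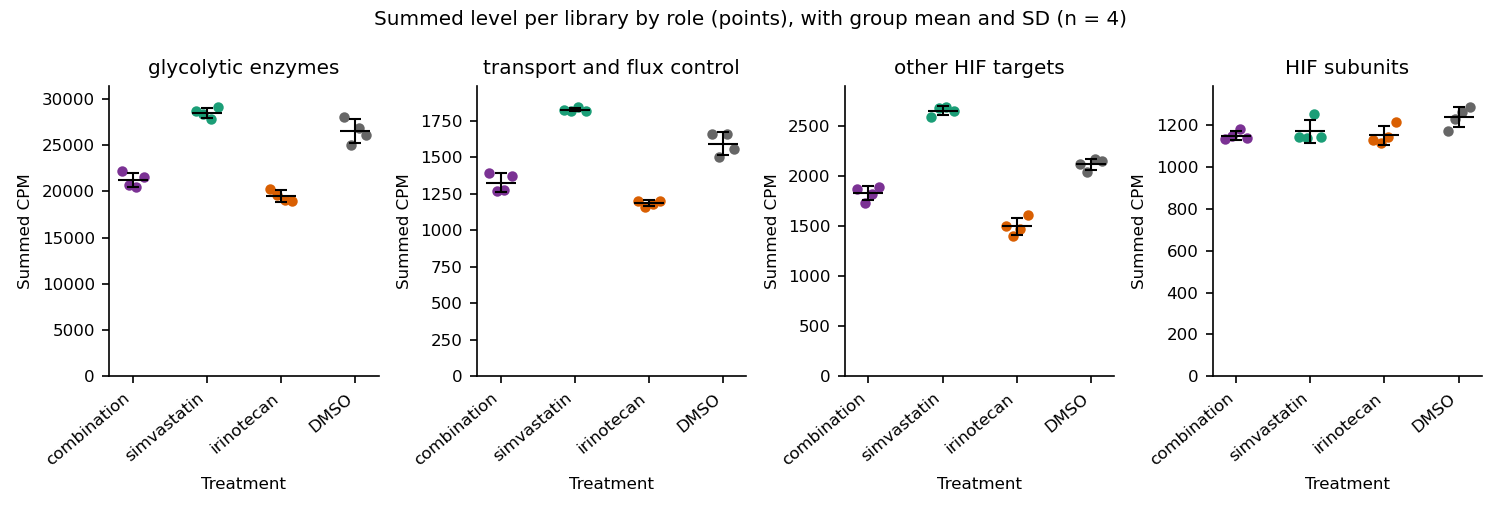
Summed CPM per library (points) with group mean and SD (n = 4) for the 4 roles, vertical axes from 0, groups from left to right combination, simvastatin, irinotecan and DMSO. The other HIF targets separate all 4 groups, from 1398 to 1608 CPM with irinotecan up to 2586 to 2683 CPM with simvastatin, and the subunits overlap.

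Promoter letters and response were set side by side. The 22 genes with ACGTG had a median log2 fold change of -0.38 with irinotecan (from -1.23 to 0.15), and the 15 without it -0.32 (from -0.71 to 0.34). With simvastatin the medians were 0.19 (from -0.043 to 0.54) and 0.088 (from -0.084 to 0.47). The ranges overlapped almost wholly. LDHA, with the core in its promoter as shown above, was called in no comparison with TMM factors and all libraries (its other values with irinotecan are given above), and ADM, with GCGTG but no ACGTG in its window, was among those that moved most. The LDHA count was low for a cause not tested (3.45 CPM per kb with DMSO), and the windows do not cover elements farther from the start. Whether the letters bear on the response was not tested.

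Genes beyond the 40 were taken from lists of the same pathways. Of 46 tested further HIF targets, 29 rose and none fell with simvastatin (none lower at an unadjusted p under 0.05 or by DESeq2), where 3.89% of all genes were called higher and 2.11% lower. With irinotecan 33 fell and 1 rose, where 11.7% of all genes were called lower and 12.4% higher. Those that rose with simvastatin included STC2 (1.00 ± 0.051, adjusted p = 3.86e-14), a secreted glycoprotein, and the collagen cross-linking enzyme LOX (0.95 ± 0.057, adjusted p = 1.08e-11), and those that fell with irinotecan included STC1 (-0.71 ± 0.043, adjusted p = 1.4e-13), a relative of STC2, and the adenylate kinase AK4 (-0.64 ± 0.044, adjusted p = 1.57e-12). Medians were 0.25 with simvastatin and -0.27 with irinotecan. In the interaction DDIT4, a brake on mTORC1, was the 1 gene of that list called (-0.44 ± 0.079, adjusted p = 0.037). That call was lost without any 1 of 11 of the 16 libraries (all of the combination, simvastatin replicate 1 or 4, irinotecan replicate 1, 3 or 4, DMSO replicate 2 or 4, adjusted p up to 0.178) and with the 12 numbered libraries (0.187).

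Further genes of glycolysis and pyruvate handling, 23 of them tested, showed no common direction with irinotecan. In the combination against DMSO edgeR called 5 of them higher and none lower, where 15.1% of all genes were called higher and 13.0% lower. DESeq2 called 5 higher and 2 lower in that comparison. With irinotecan 4 rose and 3 fell (median 0.0049), shares near the 12.4% higher and 11.7% lower of all genes, and with simvastatin 6 rose and 1 fell (median 0.021), against 3.89% and 2.11% of all genes. The pyruvate dehydrogenase kinase PDK2 rose with irinotecan by 0.68 ± 0.089 (adjusted p = 6.38e-07), whereas its relative PDK1 fell as given above. PDP1, the phosphatase that reverses these kinases, rose with irinotecan by 0.23 ± 0.046 (adjusted p = 0.000317) and fell with simvastatin. PGM1, which links glycogen to glycolysis, fell with irinotecan by -0.35 ± 0.041 (adjusted p = 1.37e-07), as did the lactate transporter SLC16A1 by -0.21 ± 0.035 (adjusted p = 2.41e-05). With simvastatin, HKDC1, a hexokinase-like gene, rose by 0.73 ± 0.052 (adjusted p = 2.83e-11) and the mitochondrial pyruvate carrier MPC1 by 0.38 ± 0.060 (adjusted p = 5.25e-05).

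A list of further HIF regulators, 13 of them tested, held 1 call with simvastatin alone and none with irinotecan alone. EGLN1 and EGLN3 were not on it, being counted among the other HIF targets. Both fell with irinotecan and rose with simvastatin, as given above. Of the 13, none was called with irinotecan, where 24.1% of all genes tested were called. At an unadjusted p under 0.05 edgeR placed none of the 13 higher and 1 lower, and DESeq2 called none. With simvastatin 1 rose, SIAH2, a ubiquitin ligase that targets prolyl hydroxylases (0.32 ± 0.052, adjusted p = 9.95e-05). Of all genes tested 6.0% were called with simvastatin, so 1 of 13 is not read as particular to this list. The combination had 1 called higher against DMSO, 1 higher against irinotecan, and 1 higher and 2 lower against simvastatin. Over all genes tested, 28.1%, 5.94% and 25.6% were called in these 3 comparisons, in the same order. Among 5 genes of the MondoA glucose-sensing system, irinotecan raised TXNIP, which limits glucose uptake (0.46 ± 0.039, adjusted p = 1.32e-10), its relative ARRDC4 (0.30 ± 0.048, adjusted p = 1.15e-05) and MLXIP, the gene of MondoA itself (0.32 ± 0.041, adjusted p = 6.29e-07), and lowered the partner gene MLX (-0.16 ± 0.043, adjusted p = 0.00642; 0.15 with library totals alone and 0.0876 with the 12 numbered libraries). None of the 5 was called with simvastatin (none at an unadjusted p under 0.05 and none by DESeq2). Over all genes tested, 12.4% were called higher and 11.7% lower with irinotecan, and 6.0% were called with simvastatin.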

How the data were processed

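The authors deposited 1 table of raw, unnormalised counts, with 58243 Ensembl gene IDs as lines and the 16 libraries as columns. Per the submitters' processing notes, reads were handled with FastQC, STAR 2.7.1, GRCh38 and DESeq2; the counter, its annotation and its use of strand were not given in the sources used here, so reads of genes that overlap on opposite strands cannot be told apart. GENCODE 29 held 57980 of the IDs and gave coordinates and exon lengths. Totals were 24159673 to 32318888 counts, and library pairs within a group differed by a chi-square of 2.47 to 13.9 per degree of freedom. No pair was thus a copy of 1 library, but separate libraries of 1 RNA or culture can also differ in this way.

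In R 4.3.3, edgeR 4.0.16 with limma 3.58.1 kept 16647 genes (filterByExpr, minimum count 10, total 15), scaled libraries by TMM and fitted 1 term per group to all 16 libraries with robust quasi-likelihood dispersions (common biological coefficient of variation 5.25%). Comparisons were two-sided F tests, with Benjamini-Hochberg adjustment over all genes and a call at 0.05. The scripts were tested on simulated data. Alternatives were DESeq2 1.42.0, other scalings, no filter, fewer libraries, a replicate block, a threshold of 0.01 and leaving out each library. Summed levels have no test. Figures used Python 3.11.15 and matplotlib 3.10.9.

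The members and lists were chosen with earlier results of these data known. Per-library values are given for members called in a comparison and among the 6 smallest p of their role there, and for the subunits; from each further list, up to 4 genes with the smallest p with irinotecan, with simvastatin and in the interaction are named, except 1 gene that is not reported here.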

Additional observations from a re-analysis of the deposited data

Results flagged for a closer look

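In 160 groups of 4 libraries (40 genes in 4 treatments), 4 held a library farther from its group than Dixon's 95% critical value allows, where chance gives about 1 group in 20. HK2, the inducible hexokinase, was at 128.6 CPM in simvastatin replicate 3, and the other simvastatin libraries were at 118.2 to 119.8 CPM. HIF1A was at 1190 CPM in the same simvastatin replicate 3, against 1082 to 1085 CPM in the others. SLC2A1, the gene of GLUT1, was at 811.0 CPM in simvastatin replicate 2, with the others at 836.9 to 838.8 CPM, and at 594.3 CPM in irinotecan replicate 4, with the others at 571.6 to 574.2 CPM. DDIT4, a further HIF target and a brake on mTORC1, departed from the sum of the single-drug changes by -0.44 on the log2 scale (edgeR interaction test, adjusted p = 0.037), a call lost without any 1 of 11 of the 16 libraries (adjusted p up to 0.178).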

How the results depend on the processing

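Over the members' log2 fold changes and their alternatives, 2940 called values kept their call and 50 lost it, and 2432 uncalled values stayed uncalled and 58 gained a call, and no called value changed sign; an uncalled value was not counted as reversed. The number of members called higher with irinotecan was 1 in place of 2 (PFKM was lost) with median-ratio size factors, with DESeq2, with only the groups compared, with the 12 numbered libraries and at an adjusted p under 0.01. For the combination against DMSO it was 1 in place of 2 with the 12 numbered libraries and at 0.01, and for the combination against simvastatin it was 2 in place of 1 with library totals alone. At 0.01 the genes called were 558 (simvastatin), 2587 (irinotecan) and 3032 (combination) against DMSO, 529 for the combination against irinotecan, 2681 for it against simvastatin and 0 in the interaction. The 12 numbered libraries gave 513 genes with simvastatin and 1 in the interaction, where the main count was 2, DESeq2 gave 4 and no filter gave 14. Leaving out 1 library gave 664 (without simvastatin replicate 4) to 1224 genes (without simvastatin replicate 3) for simvastatin and 0 to 9 for the interaction (9 without simvastatin replicate 3). Members called in the 2 directions then ranged from 16 to 21 higher and 0 to 1 lower with simvastatin (HIF1A without simvastatin replicate 3), 1 to 3 higher and 30 to 32 lower with irinotecan, and 1 to 2 higher and 26 to 28 lower with the combination, against DMSO. The sources do not say that equal replicate numbers pair libraries, and the deviations of libraries with the same number correlated at -0.0795 to 0.162 (median 0.0559, 18 pairs; 36 pairs of unlike number had a median of -0.0422), although 10 of 12 numbered libraries correlated best with their own number. A replicate block over the 12 numbered libraries gave 2016 genes in the combination against irinotecan (main count 989), 190 in the interaction and 1 member lower in the interaction, ENO2 (-0.26, adjusted p = 0.00937). With that block edgeR also called GPI (adjusted p = 0.0318), ENO2 (2.23e-05), SLC2A1 (0.0261), SLC2A3 (0.00822) and BHLHE40 (0.00661) higher with simvastatin. It called SLC2A3 (0.0152) and NDRG1 (0.0205) lower with irinotecan, and ERO1A (0.0324) lower with the combination against DMSO. BHLHE40 (0.0243) was called higher in the combination against irinotecan, and CA12 (0.00662) lower in the combination against simvastatin. Depth limits CA12, ANKRD37 and ALDOC most, which had few counts.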
